A study of Danio rerio with 4 samples.

Results

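Neurotransmitter-gated receptor subunit genes were followed in whole zebrafish larvae (*Danio rerio*) at 5 dpf (days post fertilization). Homozygous *uhrf1* mutants, labelled uhrf1-hi272 -/-, were compared with phenotypically normal siblings, which the labels give as a mixture of +/+ and +/- larvae. Mutant larvae were told from siblings by phenotype, each library came from a single pool of 10 larvae, and ribosome-depleted RNA of 2 mutant and 2 sibling pools was sequenced. *uhrf1* encodes a protein that binds hemimethylated DNA and brings the maintenance methyltransferase Dnmt1 to it. The comparison asks how gene expression differs in homozygous mutants of this gene. The receptor genes were all rows of the deposited gene table whose zebrafish symbol starts with gabr, glra, glrb, gria, grin, grik or chrn. These were 43 of the 15171 rows, with 9 GABA, 7 glycine, 13 glutamate and 14 nicotinic receptor genes, each with 1 row, and no symbol of the table started with grik. Subunit genes without a row there were not analysed here. The larvae were sequenced whole, so fewer neurons or muscle cells and less RNA per cell cannot be told apart in any value below.

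These receptors are ion channels that open when a transmitter binds. GABA-A, glycine and nicotinic receptors are pentameric members of the Cys-loop superfamily. The first pair let chloride through and inhibit most mature neurons, while nicotinic receptors let cations through, carry transmission from motor neuron to muscle, and modulate neurons of the brain and retina. Ionotropic glutamate receptors are tetramers of a different structural family: AMPA receptors (gria) carry fast excitation, and NMDA receptors (grin) admit calcium and need both glutamate and glycine. Subunit choice sets a receptor's kinetics, drug binding and place in the membrane.

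Gene totals per library ranged from 2996676 to 9100665 counts, and the receptor genes held between 0.185% and 0.245% of them. Levels are given as CPM, which are counts divided by the TMM-adjusted library size, and 1 count was worth 0.110 CPM in the deepest library (mutant 1) and 0.314 CPM in the shallowest (sibling 2). CPM is not corrected for transcript length, so the level of a gene is compared between groups. Shares of a gene or sum in another, given below, depend on transcript length too, and their size is not a share of molecules. Fold changes are mutant over sibling on the log2 scale, with the standard error (SE) and 95% interval of edgeR's quasi-likelihood fit over all genes, and a gene passed at a Benjamini-Hochberg adjusted p under 0.05. *uhrf1* itself stood at 33.3 and 24.2 CPM in mutants 1 and 2, against 21.4 and 46.8 CPM in siblings 1 and 2 (log2 fold change -0.21 with an SE of 0.35, edgeR adjusted p = 0.765). The groups overlapped, so this count does not check the labels. Nothing in the labels says which clutch a pool came from, and p-values measure only the spread between these pools. The smallest exact two-sided permutation p for 2 libraries against 2 is 0.333, so no such test is given for single values.

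No receptor subunit gene passed the test, in either direction. Of the 43 genes, 41 had enough counts to be tested, and 0 were called higher and 0 lower, beside 8.37% of all 12786 rows called in the same fit. At an unadjusted p under 0.05 the receptor genes numbered 3, namely *gabrz*, *glrbb* and *chrna11*, which is 7.32% of those tested, beside 23.3% of all rows. DESeq2 and limma-voom also called 0 receptor genes. At an unadjusted p under 0.05 DESeq2 had 2, *gabrz* and *glrbb*, and limma-voom had 3, *gabra4*, *gabrz* and *glrbb*. *chrna11* was in neither. These fits used the same counts as edgeR, and the share of all rows at that cut was not counted for them. The 95% interval lay wholly within a 2-fold change either way for 25 of the 41 genes, and for the other 16 it reached beyond 2-fold. The fitted values leaned downward: 31 of the 41 had a log2 fold change below 0 (75.6%, beside 49.7% of all rows), and the median was -0.16, beside 0.00363 over all rows. With library totals alone as the scaling, 24 of the 41 were below 0. Under that scaling the median over all rows was itself higher, at 0.0803, and that of the receptor genes was -0.0854. Both mutants lay below both siblings for 14 of the 41 (34.1%, beside 26.9% of all rows) and above both for 2 (4.88%, beside 28.0%).

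**Figure D1:**
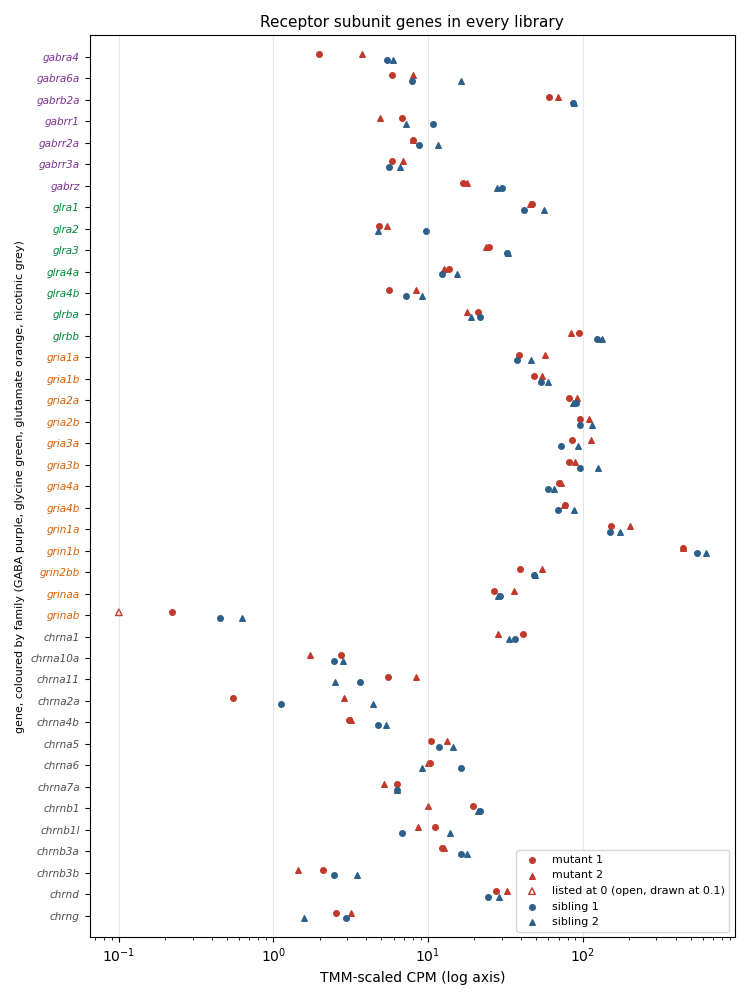
Level of 41 of the 43 receptor subunit genes in every library, in TMM-scaled CPM on a log axis. Mutant libraries are red and drawn just above sibling libraries, which are blue, and circles and triangles mark libraries 1 and 2. For most genes the 4 points lie close together. *gabrz*, *glrbb* and *grin1b* have both mutants below both siblings, *chrna11* has both above, and the open triangle marks *grinab*, listed at 0 in mutant 2.

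The 4 families differed in how far their summed levels lay apart. The 9 GABA receptor genes together stood at 238 and 231 CPM in mutants 1 and 2, against 310 and 309 CPM in siblings 1 and 2. That is a ratio of 0.759, with the groups well separated and the libraries of each group close to each other. Glycine receptor genes summed to 211 and 198 CPM in mutants 1 and 2, against 250 and 271 CPM in siblings 1 and 2, a ratio of 0.786 without overlap. The 2 beta subunit genes had a ratio of 0.727 and the 5 alpha subunit genes one of 0.865. Of the glycine sum, *glrbb* alone averaged 89.4 CPM in mutants and 129 CPM in siblings. For glutamate receptor genes the sums were 1249 and 1406 CPM in mutants 1 and 2, against 1357 and 1559 CPM in siblings 1 and 2. Here mutant 2 lay above sibling 1, so the groups overlapped, and the ratio was 0.910. Nicotinic receptor genes gave 155 and 141 CPM in mutants 1 and 2, against 158 and 165 CPM in siblings 1 and 2, a ratio of 0.919 with the lower sibling just above the higher mutant. The median log2 fold changes of the members tested were -0.44 for GABA, -0.26 for glycine, -0.04 for glutamate and -0.16 for nicotinic receptors. The GABA, glycine and nicotinic medians stayed below 0 under every scaling tried. The glutamate median was 0.04 with library totals alone, where the median over all rows was 0.0803. It was 0.09 without mutant 1 and 0.08 without sibling 2. The size of 2 others rested on single libraries. The glycine median was -0.40 without mutant 2 and -0.16 without sibling 2. The nicotinic median was -0.30 without mutant 1, -0.32 without sibling 1, -0.06 without mutant 2 and -0.08 without sibling 2.

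**Figure D2:**
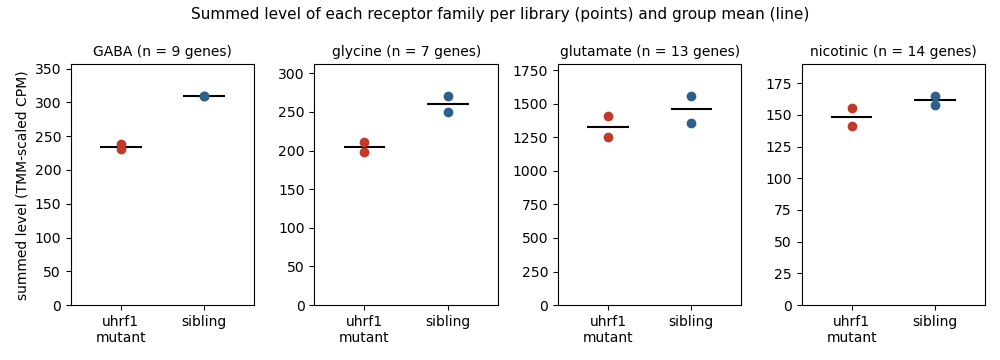
Summed level of each receptor family in TMM-scaled CPM, with each library as a point (mutants red on the left, siblings blue on the right) and each group's mean as a line. Every vertical axis starts at 0, and the axes differ between families. The GABA and glycine sums of both mutants lie below those of both siblings, while the glutamate sums overlap.

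Ratios between families within a library do not depend on the scaling. The GABA sum as a share of the glutamate sum was 19.0% and 16.5% in mutants 1 and 2, against 22.8% and 19.8% in siblings 1 and 2. The glycine sum as a share of the glutamate sum was 16.9% and 14.1% in mutants 1 and 2, against 18.4% and 17.4% in siblings 1 and 2. Both shares were lower in both mutants than in both siblings, though mutant 1 lay close to sibling 2 in each. Set against the pan-neuronal list described below, the GABA sum was 15.0% and 13.4% in mutants 1 and 2, against 14.8% and 14.7% in siblings 1 and 2. The glycine sum on that measure was 13.3% and 11.5% in mutants 1 and 2, against 12.0% and 12.9% in siblings 1 and 2. The groups overlapped for both. The glutamate sum on this measure was 78.8% and 81.3% in mutants 1 and 2, against 65.0% and 74.2% in siblings 1 and 2, with both mutants above both siblings. These ratios are descriptions of 4 pools, and no test was run on them.

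Among GABA-A receptor genes, the beta subunit gene *gabrb2a* stood at 60.3 and 69.6 CPM in mutants 1 and 2, against 86.8 and 88.4 CPM in siblings 1 and 2 (log2 fold change -0.44, SE 0.20, 95% interval -0.89 to 0.02, edgeR adjusted p = 0.233). Beta subunits are part of the common synaptic receptor of vertebrate brain. The 2 mutants lay below the 2 siblings, and the interval held 0.

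The GABA receptor gene with the lowest p was *gabrz*, annotated as a zeta subunit. It stood at 16.8 and 17.8 CPM in mutants 1 and 2, against 30.0 and 28.0 CPM in siblings 1 and 2. The mutants lay below the siblings, and the groups were farther apart than the libraries within each. The fit gave a log2 fold change of -0.75 (SE 0.25, 95% interval -1.30 to -0.20, unadjusted p = 0.0126, edgeR adjusted p = 0.0959). That does not pass, and over the leave-one-out fits its adjusted p lay between 0.116 and 0.310. With the shared replicate number as a block it passed (log2 fold change -0.75, edgeR adjusted p = 0.0313). The alpha subunit gene *gabra4* had few reads, 18 and 13 counts in mutants 1 and 2, against 24 and 19 counts in siblings 1 and 2 (log2 fold change -1.09, SE of 0.49, edgeR adjusted p = 0.215). Without mutant 1 its log2 fold change was -0.61, so the size rested on that library. *gabra6a*, whose mammalian counterpart marks cerebellar granule cells, stood at 5.83 and 8.05 CPM in mutants 1 and 2, against 7.89 and 16.4 CPM in siblings 1 and 2 (log2 fold change -0.81, SE of 0.42, edgeR adjusted p = 0.286), and sibling 2 lay far above the other 3 libraries. Over the whole GABA family, 6 of 9 genes had both mutants below both siblings, which is 66.7% beside 26.9% of all rows, and 0 had both above. Among these were *gabra4*, *gabrb2a*, *gabrr1*, *gabrr2a* and *gabrz*.

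The subunits encoded by *gabrr* genes form GABA receptors known above all from retinal bipolar cells. The 3 genes of this kind were among those with few reads, and none passed. *gabrr1* stood at 6.82 and 4.89 CPM in mutants 1 and 2, against 10.8 and 7.23 CPM in siblings 1 and 2 (log2 fold change -0.60, SE of 0.39, edgeR adjusted p = 0.395). *gabrr2a* stood at 8.03 and 8.05 CPM in mutants 1 and 2, against 8.79 and 11.6 CPM in siblings 1 and 2 (log2 fold change -0.33, SE of 0.35, edgeR adjusted p = 0.614). *gabrr3a* stood at 5.83 and 6.90 CPM in mutants 1 and 2, against 5.64 and 6.60 CPM in siblings 1 and 2, with overlapping groups and a log2 fold change of 0.05 (95% interval -0.83 to 0.92). Summed, these 3 genes gave 20.7 and 19.8 CPM in mutants 1 and 2, against 25.3 and 25.5 CPM in siblings 1 and 2. The sums of retinal markers lay much farther apart than that of the *gabrr* genes. Of 12 bipolar cell markers tested, 3 fell and 0 rose, beside 8.37% of all rows called in either direction. Their median log2 fold change was -0.75, with sums of 664 and 680 CPM in mutants 1 and 2, against 1138 and 1474 CPM in siblings 1 and 2. Most of that sum came from *gnb3b*, at 458 and 487 CPM in mutants 1 and 2, against 804 and 1150 CPM in siblings 1 and 2. The markers that fell included *vsx1*, a transcription factor gene of bipolar cells, at 37.9 and 36.5 CPM in mutants 1 and 2, against 68.5 and 60.7 CPM in siblings 1 and 2 (log2 fold change -0.80 with an SE of 0.21, edgeR adjusted p = 0.0437). Its call was lost without mutant 1, mutant 2 or sibling 1, with DESeq2 and with library totals alone, and without mutant 2 or with library totals alone 1 bipolar marker fell and 1 rose. With no count filter 1 rose as well, and with the shared replicate number as a block 1 rose and 7 fell. *cabp5a*, a calcium-binding protein gene chosen after its values were seen, lay the other way from *vsx1*, at 21.2 and 9.78 CPM in mutants 1 and 2, against 7.22 and 4.72 CPM in siblings 1 and 2 (log2 fold change 1.40 with an SE of 0.43, edgeR adjusted p = 0.0789). Of 13 photoreceptor markers tested, 6 fell and 0 rose, beside the same 8.37% of all rows, with a median of -1.05. The number lower was 10 with DESeq2, 10 with the replicate block and 4 with library totals alone. Sums of these markers were 4147 and 4675 CPM in mutants 1 and 2, against 7691 and 9689 CPM in siblings 1 and 2. The cone kinase gene *grk7a* and the cone arrestin gene *arr3a* had the lowest p there, at log2 fold changes of -1.59 (SE 0.22) and -1.65 (SE 0.23). The rod genes *rho* and *gnat1* of that list overlapped between groups, at log2 fold changes of 0.25 (SE 0.35) and -0.10 (SE 0.26). As a share of the bipolar marker sum, the *gabrr* genes were 3.11% and 2.92% in mutants 1 and 2, against 2.22% and 1.73% in siblings 1 and 2, so that share was higher in both mutants. Its denominator was mostly *gnb3b*. Which retinal cells the *gnb3b* reads came from was not tested, so the share is not read as one of bipolar cells. The part of the retina in the receptor values was not tested.

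Glycine receptors pair ligand-binding alpha subunits with a beta subunit, which ties the receptor to the scaffold protein gephyrin. The beta subunit gene *glrbb* stood at 94.3 and 84.5 CPM in mutants 1 and 2, against 125 and 134 CPM in siblings 1 and 2. Both mutants were below both siblings, with a log2 fold change of -0.53 (SE 0.21, 95% interval -0.99 to -0.07, unadjusted p = 0.0276, edgeR adjusted p = 0.152), which did not pass. Its duplicate *glrba* had overlapping groups, at 21.0 and 17.8 CPM in mutants 1 and 2, against 21.9 and 18.9 CPM in siblings 1 and 2 (log2 fold change -0.06, SE of 0.26, edgeR adjusted p = 0.917), and its value was above 0 with library totals alone, without mutant 2 and without sibling 1. *glra1*, the alpha subunit gene whose mammalian counterpart dominates the adult spinal cord, stood at 46.9 and 45.4 CPM in mutants 1 and 2, against 41.7 and 56.0 CPM in siblings 1 and 2. Both mutants lay between the 2 siblings, and the log2 fold change was -0.07 (SE of 0.23, edgeR adjusted p = 0.880), turning to 0.14 without sibling 2. *glra3* stood at 24.8 and 23.9 CPM in mutants 1 and 2, against 32.2 and 33.0 CPM in siblings 1 and 2 (log2 fold change -0.42, SE 0.23, 95% interval -0.93 to 0.09, edgeR adjusted p = 0.308), with both mutants below both siblings. *glra2* stood at 4.84 and 5.46 CPM in mutants 1 and 2, against 9.70 and 4.72 CPM in siblings 1 and 2 (log2 fold change -0.53, SE of 0.44, edgeR adjusted p = 0.520), and sibling 1 alone was high: without it the value was 0.11. *glra4a* and *glra4b* had log2 fold changes of -0.06 (95% interval -0.73 to 0.61) and -0.26 (95% interval -1.13 to 0.61), both with overlapping groups, and that of *glra4a* was above 0 with library totals alone and without sibling 2. Of the 7 glycine receptor genes, 2 had both mutants below both siblings and 0 had both above. That is 28.6% below, close to the 26.9% of all rows.

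AMPA receptor genes lay closest together in the 2 groups among the families and subfamilies summed. The 8 genes together gave 580 and 664 CPM in mutants 1 and 2, against 578 and 681 CPM in siblings 1 and 2, with a ratio of 0.989 and overlapping groups. Their log2 fold changes ran from -0.39 to 0.26, 3 above 0 and 5 below, and for all 8 the 95% interval stayed within a 2-fold change either way. *gria2a* and *gria2b* encode the subunit that, after RNA editing, keeps AMPA receptors from passing calcium. *gria2b* stood at 96.1 and 110 CPM in mutants 1 and 2, against 97.0 and 114 CPM in siblings 1 and 2 (log2 fold change -0.04, SE of 0.21, edgeR adjusted p = 0.943), and its sign turned with library totals alone, without mutant 1 and without sibling 2. *gria2a* had a log2 fold change of -0.03 (95% interval -0.48 to 0.41). The duplicates *gria3a* and *gria3b* lay on opposite sides of 0. *gria3a* stood at 86.0 and 113 CPM in mutants 1 and 2, against 72.2 and 93.7 CPM in siblings 1 and 2 (log2 fold change 0.26, SE of 0.23, edgeR adjusted p = 0.547), and its value was 0.0565 without mutant 2, 0.0742 without sibling 1, 0.44 without mutant 1 and 0.46 without sibling 2. *gria3b* stood at 81.4 and 89.1 CPM in mutants 1 and 2, against 97.0 and 126 CPM in siblings 1 and 2 (log2 fold change -0.39, SE of 0.22, edgeR adjusted p = 0.323), with both mutants below both siblings and a value of -0.19 without sibling 2. *gria4a* was the AMPA receptor gene with both mutants above both siblings, at 70.7 and 72.5 CPM in mutants 1 and 2, against 59.5 and 65.4 CPM in siblings 1 and 2 (log2 fold change 0.20, SE of 0.20, edgeR adjusted p = 0.606). The remaining AMPA receptor genes, *gria1a*, *gria1b* and *gria4b*, had log2 fold changes of 0.19, -0.14 and -0.05, each with overlapping groups.

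Every NMDA receptor needs a GluN1 subunit, which zebrafish encode in *grin1a* and *grin1b*. *grin1b* had the most counts of all receptor genes, at 448 and 448 CPM in mutants 1 and 2, against 550 and 626 CPM in siblings 1 and 2. The mutants were almost level with each other and below both siblings, and the gene did not pass (log2 fold change -0.39, SE 0.28, 95% interval -1.01 to 0.23, edgeR adjusted p = 0.438). *grin1a* stood at 153 and 203 CPM in mutants 1 and 2, against 151 and 174 CPM in siblings 1 and 2, with mutant 2 highest and the other 3 libraries lower (log2 fold change 0.13, SE of 0.24, edgeR adjusted p = 0.785), and without mutant 2 its value was -0.08. *grin2bb*, a glutamate-binding GluN2B subunit gene, stood at 39.4 and 54.3 CPM in mutants 1 and 2, against 48.5 and 49.4 CPM in siblings 1 and 2, with overlapping groups and a log2 fold change of -0.07 (95% interval -0.59 to 0.44). *grin1b* set most of the distance in the glutamate sum: without it the other 12 glutamate receptor genes had a ratio of 1.01. *grinaa* and *grinab* share the prefix but are named for NMDA receptor-associated proteins, which are membrane proteins and no channel subunits. *grinaa* stood at 26.9 and 36.2 CPM in mutants 1 and 2, against 29.3 and 28.3 CPM in siblings 1 and 2 (log2 fold change 0.11, SE of 0.25, edgeR adjusted p = 0.825). *grinab* had 2 and 0 counts in mutants 1 and 2, against 2 and 2 counts in siblings 1 and 2 and was not tested. Without these 2 the glutamate ratio was 0.907. Of the 12 glutamate receptor genes tested, 2 had both mutants below both siblings (16.7%) and 1 had both above (8.33%), beside 26.9% below and 28.0% above of all rows.

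**Figure D3:**
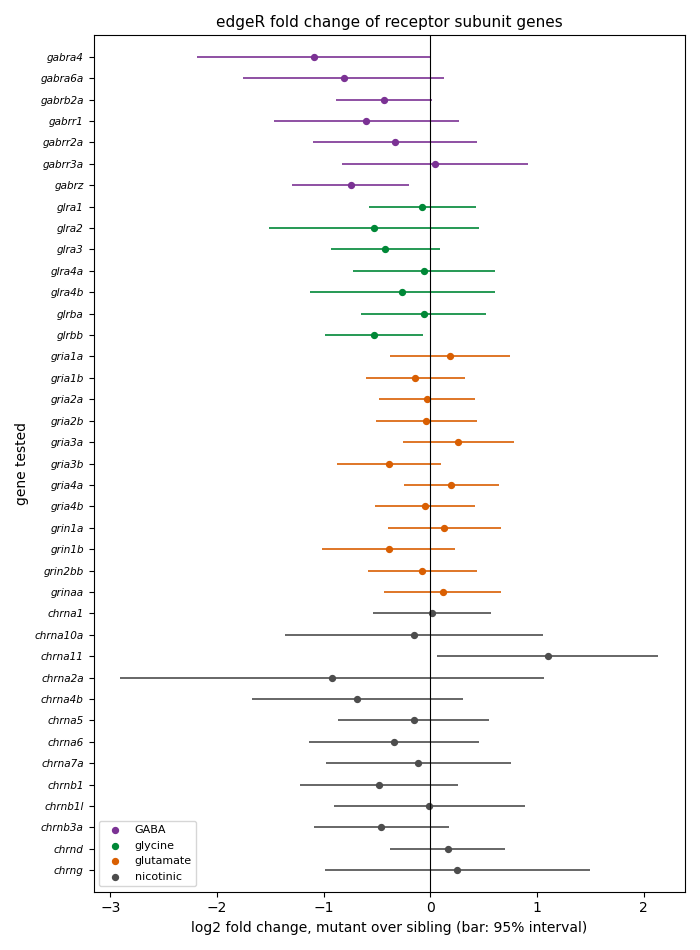
edgeR log2 fold change of receptor subunit genes tested, mutant over sibling, as a point with its 95% interval as a bar, coloured by family. The bars of 3 genes leave out 0, *gabrz* and *glrbb* below it and *chrna11* above it, and none of these passes after adjustment over all genes. Bars are short for AMPA receptor genes and long for nicotinic genes with few counts.

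Muscle-type nicotinic receptors, built of alpha1, beta1, delta and gamma or epsilon subunits, receive acetylcholine at the neuromuscular junction. The 5 genes of this kind in the table summed to 102 and 82.8 CPM in mutants 1 and 2, against 92.4 and 98.7 CPM in siblings 1 and 2, with overlapping groups and a ratio of 0.967. *chrna1* stood at 41.1 and 28.5 CPM in mutants 1 and 2, against 36.3 and 33.3 CPM in siblings 1 and 2, with mutant 1 highest and mutant 2 lowest of the 4. Its log2 fold change was 0.01 (95% interval -0.54 to 0.56) and lay on the other side of 0 with upper-quartile scaling, without mutant 1 and without sibling 2. *chrnd* stood at 27.6 and 32.5 CPM in mutants 1 and 2, against 24.6 and 28.9 CPM in siblings 1 and 2 (log2 fold change 0.16, SE of 0.24, edgeR adjusted p = 0.734). *chrnb1* stood at 19.7 and 10.1 CPM in mutants 1 and 2, against 21.9 and 21.1 CPM in siblings 1 and 2, where both mutants lay below both siblings and mutant 2 was far lower than the other 3 (log2 fold change -0.48, SE of 0.33, edgeR adjusted p = 0.427). Its value was -1.11 without mutant 1 and -0.12 without mutant 2. *chrnb1l* had a log2 fold change of -0.01 (95% interval -0.91 to 0.89). *chrng*, the gamma subunit gene that mammals use before birth, had 23 and 11 counts in mutants 1 and 2, against 13 and 5 counts in siblings 1 and 2 and a log2 fold change of 0.25 with a 95% interval of -0.99 to 1.50. Skeletal muscle markers also overlapped, with sums of 69442 and 56258 CPM in mutants 1 and 2, against 69436 and 49218 CPM in siblings 1 and 2. Of 16 tested, 0 were called by edgeR, DESeq2 or limma-voom, while 1 had an unadjusted edgeR p under 0.05, beside 23.3% of all rows. Of 18 genes for cholinergic transmission and the neuromuscular junction, 9 matched and 6 were tested. edgeR, DESeq2 and limma-voom called 0 of them, and the median log2 fold change was -0.08. The 9 genes summed to 546 and 564 CPM in mutants 1 and 2, against 511 and 524 CPM in siblings 1 and 2. Both mutants thus lay above both siblings, at a ratio of 1.07. At an unadjusted edgeR p under 0.05 there was 1 gene, beside the same 23.3% of all rows. That 1 was *agrn*, which encodes the nerve-derived organizer of receptor clusters (log2 fold change 0.61 with an SE of 0.23, edgeR adjusted p = 0.138). *rapsn*, the gene of the protein that clusters muscle receptors, had a log2 fold change of 0.29 (SE 0.23, edgeR adjusted p = 0.496).

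The other 9 nicotinic genes, 7 alpha and 2 beta, summed to 53.4 and 58.7 CPM in mutants 1 and 2, against 65.4 and 66.3 CPM in siblings 1 and 2. The lower sibling stood above the higher mutant, at a ratio of 0.851. *chrna11*, annotated as an alpha subunit, was the only nicotinic gene tested with both mutants above both siblings. It had 50 and 29 counts in mutants 1 and 2, against 16 and 8 counts in siblings 1 and 2, which is 5.50 and 8.34 CPM in mutants 1 and 2, against 3.61 and 2.52 CPM in siblings 1 and 2. The fit did not pass it (log2 fold change 1.1, SE 0.46, 95% interval 0.07 to 2.14, edgeR adjusted p = 0.187). Over the leave-one-out fits its log2 fold change lay between 0.82 and 1.40. *chrna4b*, an alpha4 gene, whose mammalian counterpart joins beta2 in the main nicotinic receptor of brain, stood at 3.08 and 3.16 CPM in mutants 1 and 2, against 4.74 and 5.35 CPM in siblings 1 and 2 (log2 fold change -0.68, SE of 0.45, edgeR adjusted p = 0.395). *chrnb3a* stood at 12.3 and 12.7 CPM in mutants 1 and 2, against 16.5 and 17.9 CPM in siblings 1 and 2 (log2 fold change -0.46, SE of 0.28, edgeR adjusted p = 0.369), with both mutants below both siblings. *chrna5*, like beta3 an accessory subunit in mammals, stood at 10.5 and 13.2 CPM in mutants 1 and 2, against 11.7 and 14.5 CPM in siblings 1 and 2 (log2 fold change -0.16, SE of 0.32, edgeR adjusted p = 0.813). *chrna6*, *chrna7a* and *chrna10a* had log2 fold changes of -0.34, -0.12 and -0.16, and the interval of *chrna10a* ran from -1.37 to 1.05. *chrna2a* had 5 and 10 counts in mutants 1 and 2, against 5 and 14 counts in siblings 1 and 2 and an interval of -2.91 to 1.06, the widest of the receptor genes. The libraries of each group lay far apart, at 0.550 and 2.88 CPM in mutants 1 and 2, against 1.13 and 4.40 CPM in siblings 1 and 2. With so few counts and this spread, a difference there was not detectable. *chrnb3b*, with 19 and 5 counts in mutants 1 and 2, against 11 and 11 counts in siblings 1 and 2, did not reach the count filter. Of the 13 nicotinic genes tested, 4 had both mutants below both siblings (30.8%) and 1 had both above (7.69%), beside 26.9% below and 28.0% above of all rows.

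Other neuronal and synaptic genes were read from lists beside the receptors. Over all 12786 rows tested, 8.37% were called in either direction and 23.3% had an unadjusted edgeR p under 0.05. Of 16 pan-neuronal genes tested, 1 fell and 0 rose, with a median log2 fold change of -0.18, beside -0.16 for the receptor genes. Both mutants lay below both siblings for 8 of the 16 (50%) and above both for 2 (12.5%). Those shares were 34.1% and 4.88% for the receptor genes and 26.9% and 28.0% for all rows. Pan-neuronal sums were 1585 and 1730 CPM in mutants 1 and 2, against 2087 and 2101 CPM in siblings 1 and 2. The ratio was 0.792, beside 0.875 for the sum of all 43 receptor genes. No more than 32.6% of the pan-neuronal sum came from *snap25a*, a gene of synaptic vesicle release. The gene that fell was *stxbp1b*, another gene of vesicle release, at 54.3 and 56.7 CPM in mutants 1 and 2, against 111 and 96.8 CPM in siblings 1 and 2 (log2 fold change -0.91 with an SE of 0.20, edgeR adjusted p = 0.0225), and its call was lost without mutant 1, without mutant 2 and with library totals alone. Of 16 inhibitory synapse genes tested, 0 were called in edgeR, DESeq2 or limma-voom, with 2 at an unadjusted edgeR p under 0.05, a median of -0.11 and sums of 1708 and 1783 CPM in mutants 1 and 2, against 2034 and 2057 CPM in siblings 1 and 2. Among them *gad1b*, which encodes a GABA-synthesizing enzyme, had a log2 fold change of -0.65 (SE 0.24, edgeR adjusted p = 0.128). The gephyrin gene *gphnb* had one of 0.81 (SE 0.32, edgeR adjusted p = 0.156). Of 21 glutamatergic synapse genes tested, 1 fell and 0 rose, with a median of -0.29 and overlapping sums of 777 and 903 CPM in mutants 1 and 2, against 885 and 978 CPM in siblings 1 and 2. That gene was *slc1a2a*, which encodes a glutamate transporter, at 14.2 and 12.1 CPM in mutants 1 and 2, against 54.8 and 38.4 CPM in siblings 1 and 2 (log2 fold change -1.81 with an SE of 0.27, edgeR adjusted p = 0.00240), and it passed in every alternative fit. The duplicate *slc1a2b* overlapped between groups, at 118 and 164 CPM in mutants 1 and 2, against 117 and 145 CPM in siblings 1 and 2 (log2 fold change 0.10, SE 0.24). Glial genes moved both ways, with 2 of 12 tested higher and 2 lower and a median of -0.04. *slc1a3b*, a glial glutamate transporter gene, rose to 133 and 195 CPM in mutants 1 and 2, against 49.2 and 63.8 CPM in siblings 1 and 2 (log2 fold change 1.53 with an SE of 0.26, edgeR adjusted p = 0.00501). The myelin gene *plp1b* fell to 30.4 and 21.9 CPM in mutants 1 and 2, against 74.4 and 61.6 CPM in siblings 1 and 2 (log2 fold change -1.36 with an SE of 0.24, edgeR adjusted p = 0.00683). The lower glial count was 1 without mutant 2 and 1 with library totals alone. The part of neuronal or glial content in the receptor values was not tested.

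**Figure D4:**
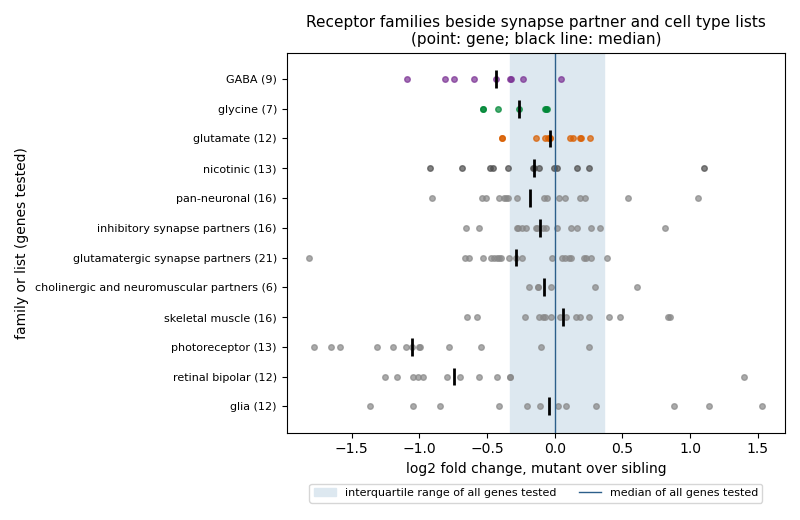
Log2 fold change of each gene tested, mutant over sibling, as a point in rows for the 4 receptor families and the 8 lists of synaptic and cell type genes, with the median of each row as a black line. The shaded band is the interquartile range of all genes tested and the blue line their median. The GABA median lies left of the band and the other receptor medians within it, while the photoreceptor and bipolar medians lie farther left.

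Zebrafish carry many subunit genes in 2 copies, called a and b, and the share of the a copy in a pair compares them within a library without any scaling. This comparison was chosen after the values were seen. Of the 7 receptor pairs with both copies tested, 5 had no overlap between groups (71.4%), beside 53.2% of 1281 such pairs over the whole table without overlap in either direction. Each of the 5 had the a share higher in both mutants. The share of all pairs in that direction alone was not counted, so the shared direction is not read as a result. The *gria3a* share of *gria3a* and *gria3b* was 51.3% and 56.0% in mutants 1 and 2, against 42.7% and 42.6% in siblings 1 and 2. The exact 95% intervals of the shares, which cover counting error only, were 48.8% to 53.9% and 52.2% to 59.7% in mutants 1 and 2. In siblings 1 and 2 they were 39.1% to 46.3% and 38.9% to 46.3%. A limma fit over all 1281 pairs did not pass this pair (change of the log2 ratio 0.64, SE 0.24, 95% interval 0.11 to 1.17, limma adjusted p = 0.149). The *grin1a* share of *grin1a* and *grin1b* was 25.5% and 31.2% in mutants 1 and 2, against 21.6% and 21.7% in siblings 1 and 2, close in both siblings and apart in the mutants (change of the log2 ratio 0.51, SE 0.23, 95% interval 0.00 to 1.02, limma adjusted p = 0.220). The *glrba* share of both beta subunit genes was 18.2% and 17.4% in mutants 1 and 2, against 14.9% and 12.3% in siblings 1 and 2 (change of the log2 ratio 0.46, SE 0.30, 95% interval -0.22 to 1.14, limma adjusted p = 0.410). The *gria1a* share was 44.6% and 51.3% in mutants 1 and 2, against 41.0% and 43.9% in siblings 1 and 2, and the *gria4a* share 47.8% and 48.9% in mutants 1 and 2, against 46.0% and 42.4% in siblings 1 and 2. *gria2a* and *glra4a* shares overlapped between groups. The limma fit called 0 of the 7 receptor pairs, beside 4.61% of all pairs. At an unadjusted limma p under 0.05 there were 2 of the 7, beside 289 of all 1281 pairs. These 2 were the *gria3a* and *gria3b* pair at 0.0232 and the *grin1a* and *grin1b* pair at 0.0496. The copies of a pair can share sequence, identity between them was not measured, and reads common to both can be split or dropped by the counting, so single values of such copies are uncertain.

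**Figure D5:**
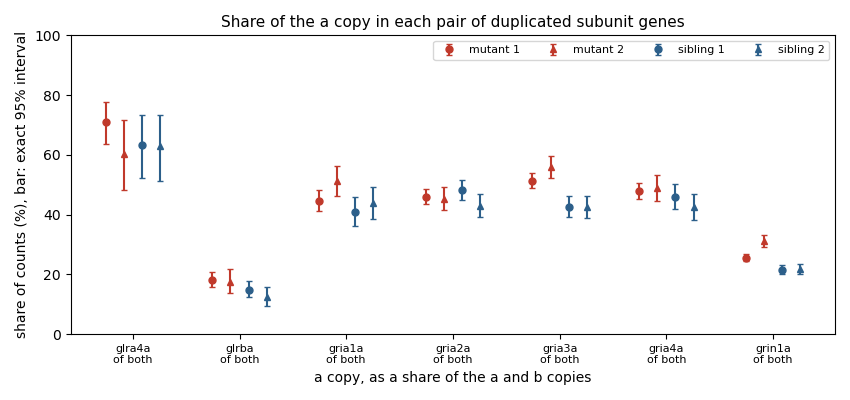
Share of the a copy in the counts of both copies, in percent, for the 7 receptor gene pairs with both copies tested, with mutants in red to the left of siblings in blue and exact 95% binomial intervals as bars. The *gria3a* and *grin1a* shares of both mutants lie above those of both siblings with intervals that do not meet, while *gria2a* and *glra4a* shares overlap.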

How the data were processed

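RNA of pooled whole larvae was sequenced after ribosomal RNA removal. The authors deposited unnormalized counts, 1 value per RefSeq accession and library. The submitters' processing notes name Bowtie2 2.1.0, HTSeq, DESeq2 and build GRCz10, without saying what each did. Annotation, strand setting and treatment of multiply mapping reads were not given in the sources used here, and overlapping and antisense genes may share reads. A RefSeq table (assembly GRCz12tu) named 14472 of the 15171 rows, and its coordinates were left out because the builds differ. The table of repeats was not used. Groups and replicate numbers come from the titles.

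Counts were fitted in R 4.3.3 with edgeR 4.0.16 (filterByExpr, TMM, glmQLFit and glmQLFTest, mutant over sibling, no block), adjusted over all 12786 rows tested. The SE is the log2 fold change divided by the square root of F, and its 95% interval uses the fit's t quantile. Copy pairs were fitted with limma 3.58.1 on differences of log2 CPM with a prior count of 2. Both fits were checked on simulated data. Sums of CPM take every matched gene, also below the filter. For lists, symbols matched in 116 of 164 cases. Genes described in full were, per family, the 5 with the most counts and the 3 with the lowest p, and list genes were past the threshold, at most 4 a list, while other list genes and receptor genes named were chosen after their values were seen. Single values of 2 GABA receptor genes are not reported here, and the genes remain in all counts, sums and medians. The members and lists were chosen with earlier results of these data known. Other settings tried were DESeq2 1.42.0, voom in limma, 3 scalings, no count filter, at least 50 counts in 2 libraries, summed rows per symbol, the replicate block and each library left out. Libraries of a group were no duplicates, since the chi-square statistic over genes, divided by its degrees of freedom, was 13.6 for mutants and 15.7 for siblings.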

Additional observations from a re-analysis of the deposited data

How the results depend on the processing

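The count of 0 receptor genes past the threshold, in either direction, held under every scaling, filter, test and left-out library that was run, except with the replicate block. That block, which fits the shared number of a mutant and a sibling library as a pair, gave 1 lower, *gabrz* (log2 fold change -0.75, edgeR adjusted p = 0.0313), and 1366 higher and 1165 lower over all genes, against 585 and 485 without it. Among list genes it called 1 higher and 1 lower of the inhibitory synapse genes, and 1 higher and 1 lower of the skeletal muscle markers. Of the cholinergic and neuromuscular genes it called 1 higher and 0 lower. The labels do not say that a number marks a shared clutch, and whether the numbers pair the libraries is unknown. Deviations of same-numbered libraries from their group means had a correlation of 0.242 over all genes tested. Without 1 library at a time, counts over all genes were 333 to 805 higher and 243 to 754 lower. The log2 ratio of the GABA sum was -0.40, with -0.33 for library totals alone, -0.42 for upper-quartile scaling and -0.43 to -0.38 without 1 library. That of the nicotinic sum was -0.12, and -0.21 to -0.0531 without 1 library. The glycine median was -0.26, and -0.0691 with at least 50 counts in 2 libraries, when 5 of the 7 genes were left.

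Of the 24 receptor genes chosen by rule and the 7 pairs, those that changed sign passed in no fit. With library totals alone these were *glra4a* 0.00474, *glrba* 0.0182, *gria2b* 0.0296, on the log2 scale, where the median over all rows was 0.0803. With upper-quartile scaling it was *chrna1* -0.00460, and with the replicate block *chrna1* -0.00506. Without 1 library at a time, log2 fold changes ranged over -0.31 to 0.24 for *chrna1*, -0.32 to 0.00578 for *chrna5*, -0.28 to 0.14 for *glra1*, -0.93 to 0.11 for *glra2*, -0.22 to 0.0952 for *glra4a*, -0.21 to 0.0488 for *glrba*, -0.16 to 0.0830 for *gria2b*, -0.0807 to 0.31 for *grin1a*. Log2 ratios of copies ranged from -0.16 to 0.50 for *glra4a* to *glra4b* and from -0.15 to 0.15 for *gria2a* to *gria2b*. The cause was not tested. Half-widths of the 95% interval on the log2 scale ran from 0.538 for *chrnd* to 1.98 for *chrna2a* among nicotinic genes. The widest in the other families were 1.09 for *gabra4*, 0.988 for *glra2* and 0.623 for *grin1b*. The part of depth in these widths was not tested.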
